A study of Mus musculus with 8 samples.

Results

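Interferon response genes were followed in liver of mice with 1 and with 2 intact copies of Mtap. The set comprised 50 genes listed by name, with earlier results of these data known. For each gene the brightest probe set annotated to it alone was read. Of the 50 genes 48 could be measured in this way, among 18193 genes in all. Isg15 and Ifi44 had no probe set with exactly 1 gene symbol and were not analysed here. Liver RNA came from 4 male MTAP+/- mice, heterozygous for Mtap, and 4 male MTAP+/+ mice, wild type for it. All were of strain C57BL/6 and aged 92 to 101 days, and each liver was hybridised to 1 Affymetrix array. The sources used here do not give how the altered Mtap allele was made or whether animals shared a litter, so p-values speak of the spread between these 8 livers.

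Interferons are cytokines that put cells into an antiviral state. Type I interferons act through the receptor pair encoded by Ifnar1 and Ifnar2, and the kinases JAK1 and TYK2 then activate STAT proteins. A complex that contains STAT2 and IRF9 binds the interferon-stimulated response element (ISRE), while type II interferon, encoded by Ifng, acts through another receptor and the gamma-activated sequence (GAS). The induced genes encode sensors of foreign RNA and DNA, proteins that block viral replication, guanylate-binding GTPases, parts of the antigen presentation machinery and chemokines. Hepatocytes, macrophages and endothelial cells of the liver all respond to interferon.

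The promoters of 39 of the 50 genes were in the RefSeq promoter table of build GRCm38.p6. The 250 bases before the start were searched for the ISRE letters, GAAA and GAAA separated by any 2 bases, and the GAS letters, TTC and GAA separated by any 3 bases, on both strands, and a gene with several starts counted if any of them held a match. An ISRE match was found for 15 of the 39 genes (38.5%), against 936 of 27025 genes in the whole table (3.46%). A GAS match was found for 8 of the 39 (20.5%), against 2197 of 27025 (8.13%). Matches to both motifs overlapped in 1 of the 46 start windows of these genes. Of the members with an unadjusted p under 0.05 by limma below, Ifit2 and Trim25 held no ISRE match and Stat2 held a match. Their sequences are not shown, and Dhx58, another such member, was not in the promoter table. The 150 bases before the start are shown for 6 chosen members, which do not represent the set. Trim30a has 2 starts, and a start with a match was chosen for display. ISRE matches are in capitals, read 5′ to 3′ along the strand of the gene.
Ifit1: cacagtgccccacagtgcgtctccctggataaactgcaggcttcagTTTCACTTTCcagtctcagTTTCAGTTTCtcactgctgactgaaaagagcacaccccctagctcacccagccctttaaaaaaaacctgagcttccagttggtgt
Trim30a: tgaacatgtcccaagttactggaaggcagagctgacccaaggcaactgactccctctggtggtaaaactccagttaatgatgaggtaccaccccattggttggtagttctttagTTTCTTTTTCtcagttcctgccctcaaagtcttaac
Rsad2: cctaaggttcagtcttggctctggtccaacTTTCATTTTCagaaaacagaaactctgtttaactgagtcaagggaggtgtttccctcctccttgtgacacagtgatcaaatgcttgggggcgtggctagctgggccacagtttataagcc
Gbp2: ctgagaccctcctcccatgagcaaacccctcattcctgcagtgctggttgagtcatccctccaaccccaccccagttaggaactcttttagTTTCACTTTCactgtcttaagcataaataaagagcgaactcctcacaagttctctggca
Irgm1: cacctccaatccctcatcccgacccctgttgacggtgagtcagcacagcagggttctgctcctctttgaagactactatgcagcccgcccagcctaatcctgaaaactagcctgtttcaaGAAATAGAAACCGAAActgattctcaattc
Herc6: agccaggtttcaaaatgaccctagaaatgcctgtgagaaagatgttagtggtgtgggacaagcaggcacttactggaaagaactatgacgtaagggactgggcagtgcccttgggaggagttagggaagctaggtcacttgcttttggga
These stretches lie at chr19:34640739-34640888 on the plus strand, chr7:104465194-104465343 on the minus strand, chr12:26456453-26456602 on the minus strand, chr3:142620513-142620662 on the plus strand, chr11:48871421-48871570 on the minus strand and chr6:57580842-57580991 on the plus strand. Ifit1 held 2 separate matches, Irgm1 2 overlapping ones, Trim30a, Rsad2 and Gbp2 1 each, and Herc6 none. The first match began 104 bases before the start in Ifit1, 36 in Trim30a, 120 in Rsad2, 59 in Gbp2 and 30 in Irgm1. A match describes the letters in this window and does not show binding.

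All levels are RMA log2 signals, the authors' background-corrected, quantile-normalised summary of each probe set. A change is the MTAP+/- mean minus the MTAP+/+ mean, and per-liver values are listed in the order of replicates 1 to 4. The array medians lay between 3.92 and 3.98. At its representative probe set Mtap had a signal of 6.72, 6.92, 6.99 and 6.95 in MTAP+/- livers, against 7.82, 7.57, 7.69 and 7.69 in MTAP+/+ livers, with no overlap of the genotypes at any of the 4 Mtap probe sets. The log2 change was -0.80 (limma adjusted p = 0.0281). Leaving out any single array gave an adjusted p between 0.0451 and 0.121. Hepatocyte markers (Alb, Apoa1, Ttr, Apob, Cps1 and Hnf4a) averaged 13.25 to 13.33 in MTAP+/- and 13.13 to 13.30 in MTAP+/+ livers. In a principal component analysis the leading axis (28.3% of the variance) placed MTAP+/- replicates 1, 3 and 4 beside MTAP+/+ replicate 4, at -24.9 to -23.4. MTAP+/- replicate 2 lay at 35.6 beside MTAP+/+ replicates 1 and 2 at 25.6 and 31.3, with MTAP+/+ replicate 3 between both sides at 3.58, so this axis crossed the genotypes. The next axis separated them, with MTAP+/- livers at -44.1 to -4.03 and MTAP+/+ livers at 11.3 to 29.5.

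No single interferon response gene passed the test between the genotypes after adjustment over all genes. Of the 48 members 0 had an adjusted p under 0.05 by limma, where 9 of all 18193 genes (0.0495%) did, and the smallest adjusted p among the members was 0.179. By limma 8 members (16.7%) had an unadjusted p under 0.05, against 9.14% of all genes. Of these 6 were higher in MTAP+/- liver (12.5% of members, against 4.4% of all genes) and 2 were lower (4.17% of members, against 4.74% of all genes). With each array centred on its median this split was 5 higher and 3 lower, and without MTAP+/- replicate 4 it was 5 higher and 0 lower.

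Most members nevertheless had a log2 change above 0. This was so for 34 of 48 members (70.8%), against 45.3% of all genes. The median log2 change was 0.10 over the members and -0.02 over all genes, with quartiles of the members at -0.01 and 0.31. When 1 array at a time was left out, 30 to 37 members were above 0 and the median lay between 0.08 and 0.14. The genotypes did not overlap for 6 members (12.5%, against 4.64% of all genes). All 4 MTAP+/- livers were above all 4 MTAP+/+ livers for 5 members (10.4%, against 1.95% of all genes) and below them for 1 member (2.08%, against 2.7% of all genes). The 5 genes were Trim30a, Ifit1, Herc6, Ifit2 and Trim25, and the 1 gene was Dhx58. With each array centred on its median the genotypes did not overlap for 4 members, against 4.84% of all genes. When 1 array was left out this held for 6 to 9 members, against 6.6% to 11.5% of all genes. Without MTAP+/- replicate 2 it held for 8 of the 48, against 11.5% of all genes.

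**Figure D1:**
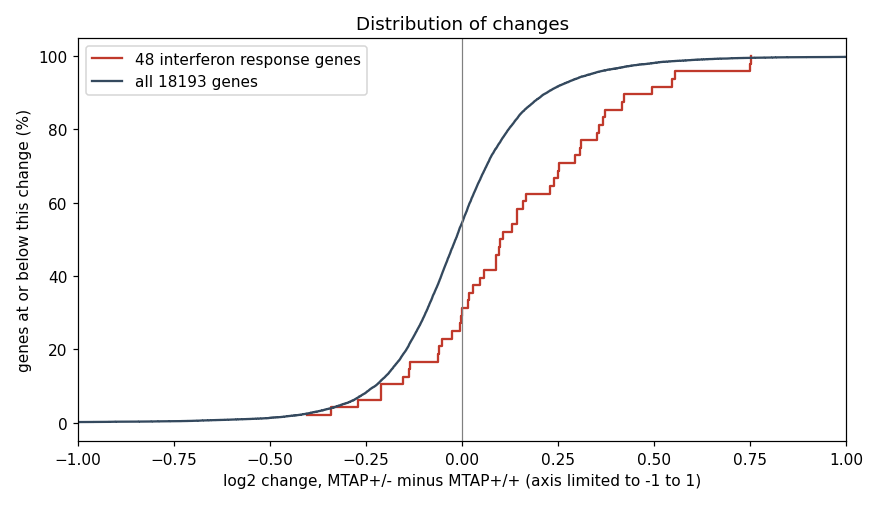
Cumulative share of genes (vertical axis, percent) at or below each log2 change of MTAP+/- minus MTAP+/+ (horizontal axis), for the 48 interferon response genes and for all 18193 genes. The curve of the 48 genes lies to the right of the other over most of its range, with medians of 0.10 and -0.02.

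Trim30a had the smallest p of the set. It encodes a tripartite-motif protein that restrains Toll-like receptor signalling in mouse macrophages. Its signal was 6.55, 6.19, 6.42 and 6.70 in MTAP+/- livers, against 5.55, 5.40, 5.92 and 5.98 in MTAP+/+ livers. Every MTAP+/- liver was above every MTAP+/+ liver, and MTAP+/+ replicates 3 and 4 were above the other 2 wild types. The log2 change was 0.75 ± 0.16 (SE, adjusted p = 0.179), a 1.68-fold difference, and it stayed between 0.65 and 0.84 when 1 array was left out. Its second probe set was at 1.03 (adjusted p = 0.127 over all probe sets).

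The other ubiquitin-related members were also above 0. All 6 measured members of this class (Trim30a, Herc6, Trim25, Trim21, Usp18 and Dtx3l) had positive changes, with a median of 0.19, and 3 were among the 8 members just counted. Herc6, the main ligase that attaches ISG15 to proteins in mouse cells, had a signal of 6.19, 6.22, 6.33 and 6.47 in MTAP+/- livers, against 6.04, 5.97, 6.06 and 5.65 in MTAP+/+ livers. The groups did not overlap, but MTAP+/+ replicate 4 was well below the other wild types. Its log2 change was 0.37 ± 0.12 (SE, adjusted p = 0.361), with 0.28 when that liver was left out. Its other 3 probe sets had changes of 0.14, 0.21 and 0.45.

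Trim25 encodes the ubiquitin ligase known for its part in RIG-I signalling. Its signal was 9.10, 9.31, 9.21 and 9.19 in MTAP+/- livers, against 9.01, 8.92, 8.88 and 9.08 in MTAP+/+ livers. The groups were separated by a narrow gap between MTAP+/- replicate 1 and MTAP+/+ replicate 4. The difference came to 0.23 ± 0.10 (SE, adjusted p = 0.501), and of its other probe sets 1 was at 0.22 and 1 at -0.02. Usp18, which removes ISG15 and blocks the type I receptor, was at 0.14, Trim21, a cytosolic antibody receptor, at 0.16, and Dtx3l, the ligase partner of PARP9, at 0.13, with overlapping groups in each.

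**Figure D2:**
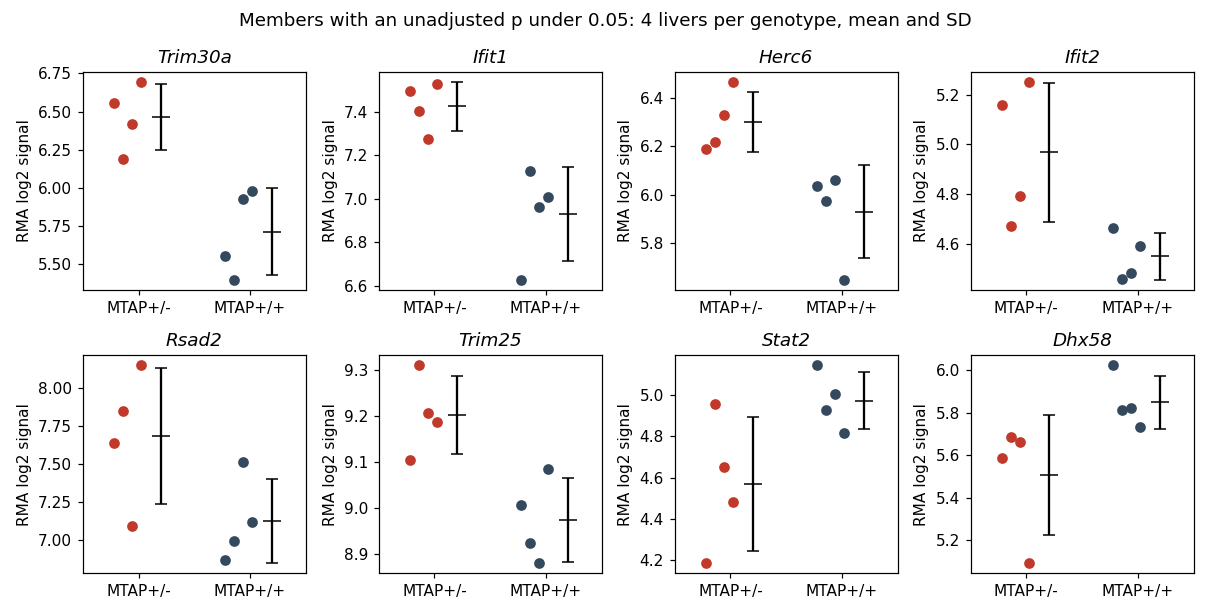
RMA log2 signal (vertical axis) of the 8 members with an unadjusted p under 0.05 by limma, in 4 MTAP+/- livers (left) and 4 MTAP+/+ livers (right), with replicates 1 to 4 from left to right and the mean ± SD beside them. The groups do not overlap for Trim30a, Ifit1, Herc6, Ifit2, Trim25 and Dhx58, and they overlap for Rsad2 and Stat2.

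The IFIT genes encode proteins that bind viral RNA and block its translation. Ifit1 had a signal of 7.49, 7.40, 7.28 and 7.53 in MTAP+/- livers, against 6.63, 7.13, 6.96 and 7.01 in MTAP+/+ livers. All MTAP+/- livers were above all MTAP+/+ livers, and MTAP+/+ replicate 1 was the lowest. Its change was 0.49 ± 0.12 (SE, adjusted p = 0.246), a 1.41-fold difference. Ifit2 had a signal of 5.16, 4.67, 4.79 and 5.25 in MTAP+/- livers, against 4.66, 4.46, 4.48 and 4.59 in MTAP+/+ livers. MTAP+/- replicates 1 and 4 stood clearly above the rest, while MTAP+/- replicate 2 was just above MTAP+/+ replicate 1. Its log2 change was 0.42 ± 0.14 (SE, adjusted p = 0.376). Ifit3 was at 0.10 with overlapping groups, near the median of the whole set.

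The oligoadenylate synthetase family, whose classical members make the signal that activates the RNA-degrading enzyme RNase L, was mixed. Of its 5 members 3 were above 0 and 2 below, with a median of 0.02 and 0 with an unadjusted p under 0.05. Oasl2, a family member known to aid RIG-I signalling, had a signal of 4.82, 5.30, 5.45 and 5.46 in MTAP+/- livers, against 5.33, 4.49, 4.84 and 4.70 in MTAP+/+ livers. MTAP+/- replicates 2, 3 and 4 were close together, and MTAP+/+ replicate 1 was as high as they were. This gave a change of 0.42 ± 0.19 (SE, adjusted p = 0.56). Oasl1, which represses translation of Irf7 mRNA in mouse cells, had a signal of 6.78, 7.19, 6.79 and 6.32 in MTAP+/- livers, against 7.25, 6.79, 7.15 and 6.73 in MTAP+/+ livers, with full overlap. This came to -0.21 ± 0.18 (SE, adjusted p = 0.79), with -0.06 without MTAP+/- replicate 4, -0.35 without MTAP+/- replicate 2 and -0.12 without MTAP+/+ replicate 1. Oas1a was at 0.09, Oas2 at 0.02 and Oas3 at -0.06, and the Oas3 signal lay below the median of all probe sets.

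Among the direct antiviral effectors 4 of 5 were above 0. Rsad2 encodes viperin, which makes a chain-terminating nucleotide. Its signal was 7.64, 7.85, 7.09 and 8.15 in MTAP+/- livers, against 6.87, 7.00, 7.51 and 7.12 in MTAP+/+ livers. MTAP+/- replicate 3 was below MTAP+/+ replicates 3 and 4, and the other 3 heterozygous livers were above all wild types. The log2 change was 0.55 ± 0.21 (SE, adjusted p = 0.457), with other probe sets at 0.08 and 0.46. Samd9l, an antiviral and growth-restraining protein, had a signal of 6.52, 6.06, 6.56 and 6.13 in MTAP+/- livers, against 5.61, 5.95, 6.11 and 6.19 in MTAP+/+ livers, with MTAP+/- replicates 1 and 3 above all others. Its log2 change was 0.35 ± 0.16 (SE, adjusted p = 0.547), and 0.23 without MTAP+/+ replicate 1. Bst2, or tetherin, which holds budding virus at the cell surface, had a log2 change of -0.05. Mx1 and Mx2 encode dynamin-like GTPases that most inbred mouse strains, C57BL/6 among them, carry in defective form. They were at 0.09 and 0.00, and the Mx1 signal lay below the median of all probe sets.

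Members at the head of the pathway lay on both sides of 0. Stat2, a subunit of the factor that binds the ISRE, had a signal of 4.18, 4.96, 4.65 and 4.48 in MTAP+/- livers, against 5.14, 4.93, 5.01 and 4.81 in MTAP+/+ livers. MTAP+/- replicates 1, 3 and 4 were below all wild types, while MTAP+/- replicate 2 was among them. The log2 change was -0.40 ± 0.16 (SE, adjusted p = 0.457), the lowest of the 48, and the second probe set was at -0.27. Irf9, its partner, was at 0.06, and Irf7, the factor that amplifies type I interferon production, at 0.10. Irf1, a factor known from responses to interferon gamma, was at 0.24 (adjusted p = 0.599), with MTAP+/- replicate 4 the highest and MTAP+/+ replicate 4 the lowest of the 8 livers.

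Sensors of foreign nucleic acid were centred on 0, with 3 of 6 above it and a median of -0.01. Dhx58 encodes LGP2, a regulator of the RNA sensors. Its signal was 5.59, 5.69, 5.66 and 5.09 in MTAP+/- livers, against 6.02, 5.81, 5.82 and 5.74 in MTAP+/+ livers. The heterozygous livers were all below the wild types, and MTAP+/- replicate 4 was far below the other 3. The mean difference was -0.34 ± 0.14 (SE, adjusted p = 0.498), and -0.20 without that liver. Its other 2 probe sets were at 0.03 and 0.06, with mean signals between 2.84 and 3.31 in both genotypes. Ifih1, which encodes the RNA sensor MDA5, was at 0.17 and Ddx58, which encodes RIG-I, at 0.03. Zbp1, a sensor of Z-form nucleic acid, was at 0.01, Adar, an RNA-editing enzyme, at -0.03, and Eif2ak2, the RNA-activated kinase PKR, at -0.06.

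The interferon-induced GTPases, which act on vacuoles of intracellular pathogens, were above 0 in 6 of 7 cases, with a median of 0.25 and 0 with an unadjusted p under 0.05. Gbp2 had a signal of 4.29, 5.07, 3.96 and 5.31 in MTAP+/- livers, against 4.17, 4.36, 4.25 and 4.42 in MTAP+/+ livers. MTAP+/- replicates 2 and 4 were far above the other 6 livers, and MTAP+/- replicate 3 was the lowest of all. Its log2 change was 0.36 ± 0.25 (SE, adjusted p = 0.733), with 0.14 without MTAP+/- replicate 4, 0.22 without MTAP+/- replicate 2 and 0.59 without MTAP+/- replicate 3. Its second probe set was at -0.05. Igtp was at 0.31, Gbp7 at 0.29, Gbp3 at 0.14 and Ifi47 at 0.05. Iigp1 had a signal of 12.09, 11.81, 12.18 and 12.06 in MTAP+/- livers, against 11.31, 12.07, 11.75 and 11.99 in MTAP+/+ livers, with MTAP+/+ replicate 1 the lowest. The mean difference was 0.25 ± 0.16 (SE, adjusted p = 0.698), and 0.09 without that liver. Irgm1, a regulator of the other GTPases of its family, was below 0. Its signal was 7.79, 8.18, 8.19 and 8.21 in MTAP+/- livers, against 8.39, 8.13, 8.56 and 8.38 in MTAP+/+ livers. MTAP+/+ replicate 2 lay within the range of the heterozygous livers, and the log2 change was -0.27 ± 0.13 (SE, adjusted p = 0.573), or -0.17 without MTAP+/- replicate 1. Its promoter holds ISRE matches, as does that of Gbp2.

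The 3 genes of antigen processing were all slightly below 0. Psmb8 and Psmb9 encode catalytic subunits of the immunoproteasome and Tap1 a subunit of the peptide transporter. Psmb9 had a signal of 7.74, 7.52, 7.53 and 7.36 in MTAP+/- livers, against 8.20, 7.43, 7.39 and 7.67 in MTAP+/+ livers. MTAP+/+ replicate 1 was far above the other 7 livers, among which the genotypes overlapped fully. The resulting change was -0.14 ± 0.17 (SE, adjusted p = 0.865), and 0.04 without that liver. Tap1 was at -0.15 ± 0.14 (SE, adjusted p = 0.801) and Psmb8 at -0.14 ± 0.13 (SE, adjusted p = 0.816). Their changes without MTAP+/+ replicate 1 were -0.05 for Tap1 and -0.01 for Psmb8.

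The chemokines that attract activated T cells had positive changes whose size depended on single heterozygous livers. Cxcl10 had a signal of 5.62, 6.13, 6.02 and 7.61 in MTAP+/- livers, against 5.69, 5.52, 5.81 and 5.37 in MTAP+/+ livers. MTAP+/- replicate 4 was far above all others, and MTAP+/- replicate 1 was within the wild-type range. The log2 change was 0.75 ± 0.34 (SE, adjusted p = 0.552), with 0.33 without MTAP+/- replicate 4 and 0.99 without MTAP+/- replicate 1. For Cxcl9 the highest and the lowest signal of all were both from heterozygous livers, 8.85 in replicate 2 and 7.13 in replicate 3. Its mean difference was 0.37 ± 0.28 (SE, adjusted p = 0.759), with 0.11 without MTAP+/- replicate 2 and 0.68 without MTAP+/- replicate 3.

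Of the 7 remaining members, which include 2 ADP-ribosyltransferases, 4 were above 0. Ifi27l2a, which encodes a small hydrophobic protein, had a signal of 7.10, 6.70, 7.48 and 7.59 in MTAP+/- livers, against 7.38, 6.23, 6.81 and 6.27 in MTAP+/+ livers, with MTAP+/+ replicate 1 within the heterozygous range. Its log2 change was 0.55 ± 0.26 (SE, adjusted p = 0.58). Parp14 had a signal of 6.91, 6.70, 7.14 and 6.78 in MTAP+/- livers, against 6.56, 6.55, 6.58 and 6.83 in MTAP+/+ livers and a log2 change of 0.25 ± 0.12 (SE, adjusted p = 0.572), with MTAP+/+ replicate 4 above 2 of the heterozygous livers. Ifi35, which forms a complex with NMI, had a signal of 9.80, 9.95, 9.88 and 9.80 in MTAP+/- livers, against 10.28, 9.87, 10.10 and 10.02 in MTAP+/+ livers, and its log2 change was -0.21 ± 0.11 (SE, adjusted p = 0.606), with other probe sets at -0.20 and -0.17. Rtp4 was at 0.31, Xaf1, a promoter of apoptosis, at 0.11, Nmi at -0.004 and Parp9 at -0.01. A single array also moved some changes in this and earlier classes by over 1.5 times. Without MTAP+/+ replicate 1 Ifi35 was at -0.14 and Gbp7 at 0.18, and without MTAP+/+ replicate 2 Rtp4 was at 0.17, Igtp at 0.20 and Gbp7 at 0.48. Without MTAP+/- replicate 1 Igtp was at 0.48, without MTAP+/- replicate 3 Parp14 was at 0.17, and without MTAP+/- replicate 4 Irf1 was at 0.15. Over all such fits Ifih1 ran from 0.03 to 0.33, Dtx3l from 0.03 to 0.22, Gbp3 from 0.04 to 0.27 and Trim21 from 0.10 to 0.24. Ifit3 ran from 0.006 to 0.15, Irf7 from 0.05 to 0.19, Irf9 from 0.002 to 0.12 and Mx1 from 0.04 to 0.14.

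**Figure D3:**
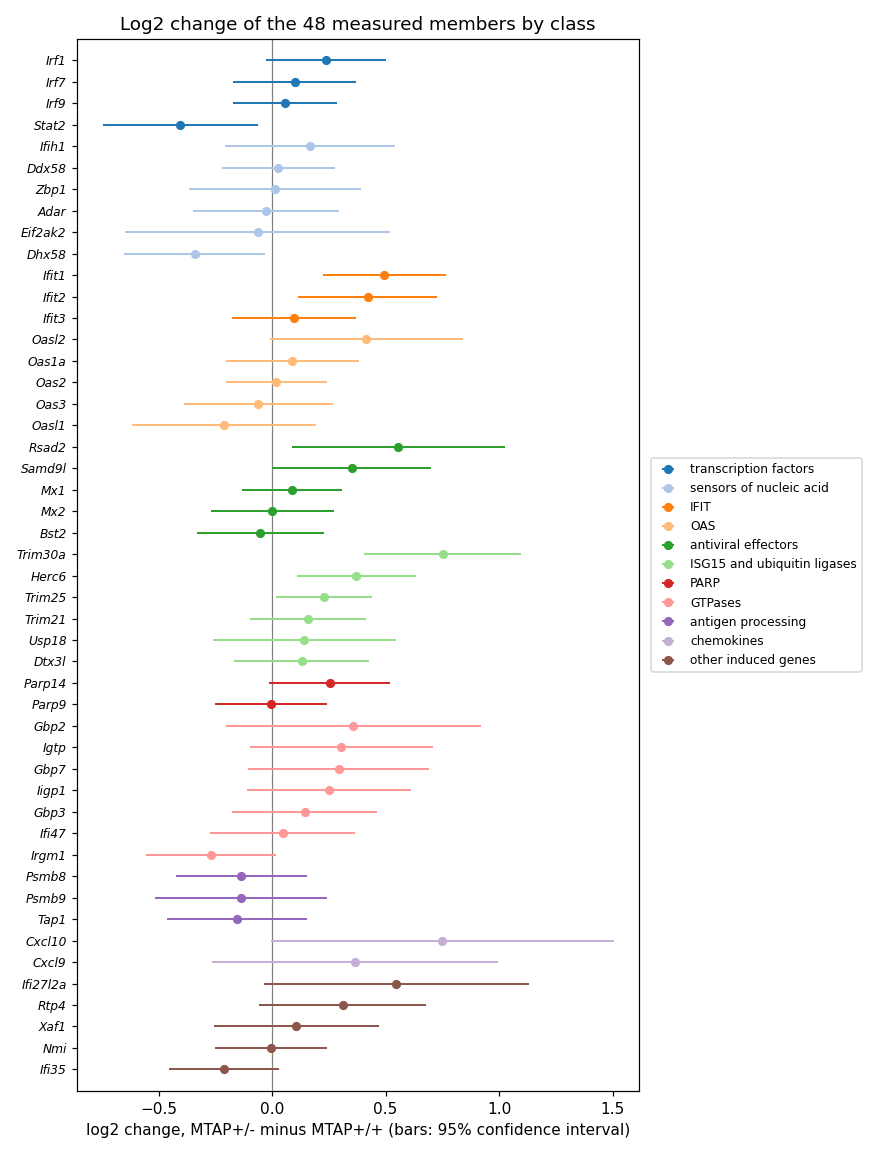
Log2 change of MTAP+/- minus MTAP+/+ (horizontal axis) with its 95% confidence interval from limma, unadjusted for the number of genes, for the 48 measured members grouped by class (vertical axis). The intervals of Trim30a, Ifit1, Herc6, Ifit2, Rsad2 and Trim25 lie above 0, those of Stat2 and Dhx58 below it, and the other 40 include 0.

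Members were also read by promoter letters, as a description without a test. Of 14 measured members with an ISRE match 10 were above 0, with a median log2 change of 0.22. Of 23 measured members whose promoters held none 15 were above 0, with a median of 0.10. For the GAS letters the counts were 5 of 8 with a match (median 0.16) and 20 of 29 without (median 0.11). Stat2, Irgm1, Bst2 and Oas3 were the members with an ISRE match and a change below 0.

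Seen liver by liver, members differed in which liver was highest. The mean over the 48 members was 6.90, 7.00, 6.98 and 7.06 in MTAP+/- livers, against 6.94, 6.77, 6.87 and 6.82 in MTAP+/+ livers, which is 6.98 ± 0.07 and 6.85 ± 0.07 (SD, n = 4 each). The groups overlapped, because MTAP+/- replicate 1 lay below MTAP+/+ replicate 1. MTAP+/- replicate 4 was the highest of all livers for 15 of 48 members and MTAP+/+ replicate 1 for 13, while MTAP+/- replicate 1 and MTAP+/+ replicate 4 were the highest for 1 each. MTAP+/+ replicate 2 was the lowest of all livers for 15 members. Over all genes the shares were 12.1% highest in MTAP+/- replicate 4, 18.2% highest in MTAP+/+ replicate 1 and 16.9% lowest in MTAP+/+ replicate 2. The classes also differed in which livers were high. The IFIT mean was 6.40, 6.34, 6.26 and 6.48 in MTAP+/- livers, against 6.00, 6.10, 6.04 and 5.98 in MTAP+/+ livers, without overlap. Nor did the mean of the ubiquitin-related members overlap, at 7.188 to 7.375 in MTAP+/- and 6.801 to 7.109 in MTAP+/+ livers. The antiviral effector mean was only just apart, at 6.119 to 6.296 in MTAP+/- and 5.899 to 6.117 in MTAP+/+ livers. Means of the OAS, GTPase, sensor and transcription factor classes overlapped. The mean of the antigen processing genes was 7.35, 7.33, 7.24 and 7.18 in MTAP+/- livers, against 7.82, 7.20, 7.20 and 7.45 in MTAP+/+ livers, with MTAP+/+ replicate 1 alone at the top.

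**Figure D4:**
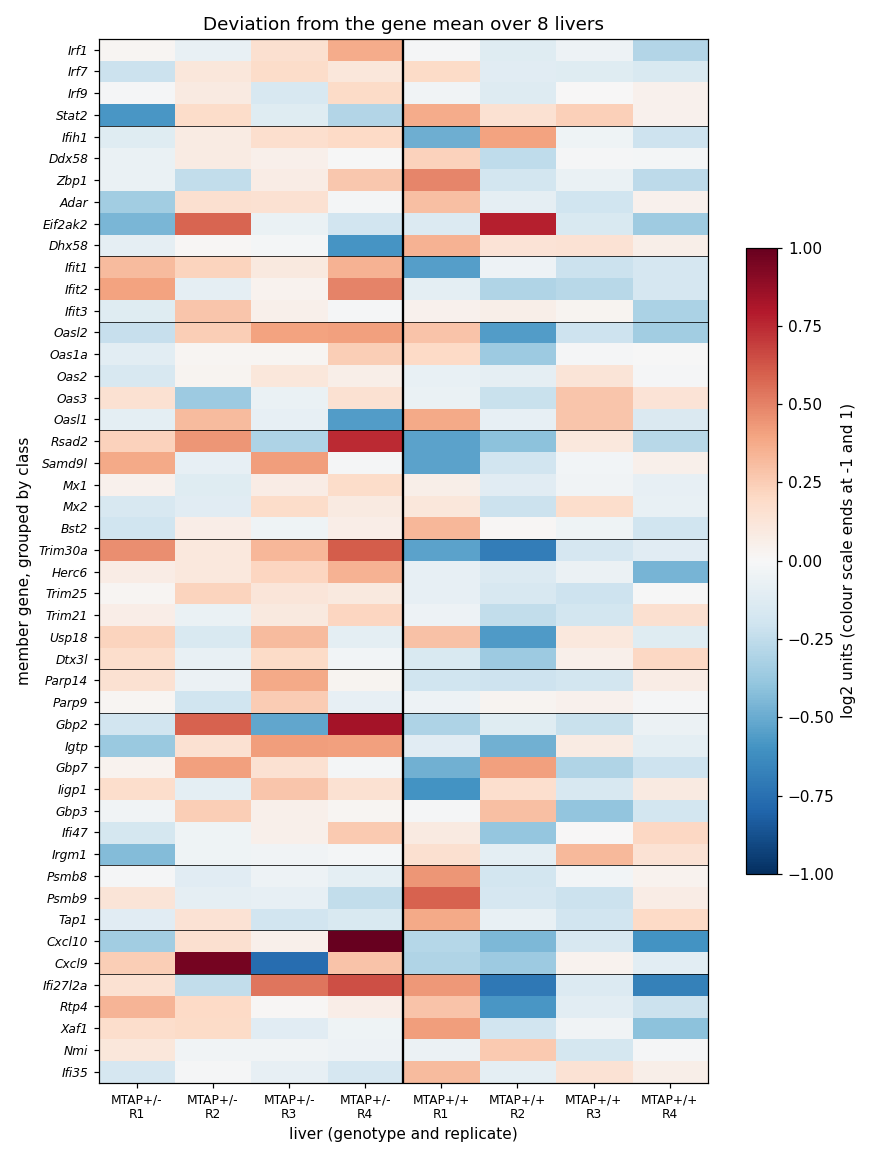
Signal of each of the 48 members (rows, grouped by class) in each liver (columns, MTAP+/- replicates 1 to 4 and then MTAP+/+ replicates 1 to 4), as deviation from the mean of that gene over the 8 livers in log2 units, red above and blue below. MTAP+/+ replicate 2 is the lowest liver for 15 members, and MTAP+/- replicate 4 is the highest for 15.

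Markers of macrophages were also mostly above 0. In whole liver fewer cells of a type and less RNA per cell cannot be told apart. The 14 macrophage and Kupffer cell markers averaged 8.05, 8.48, 8.18 and 8.53 in MTAP+/- livers, against 8.17, 8.14, 8.08 and 7.88 in MTAP+/+ livers. The summed log2 signal of the list ran from 112.7 to 119.4 in MTAP+/- and from 110.3 to 114.3 in MTAP+/+ livers. The 4 livers with the highest member means, MTAP+/- replicates 4, 2 and 3 and MTAP+/+ replicate 1, came in the same order on this list. The place of MTAP+/- replicate 2 in this order rested on Marco, whose values are given below. Among the other livers the orders differed. MTAP+/- replicate 1 was above MTAP+/+ replicates 2 and 3 by member mean and below both on this list. That place rested on Marco too, at 4.73 in MTAP+/- replicate 1 and 7.60 and 5.55 in MTAP+/+ replicates 2 and 3. With Marco left out of the sum, MTAP+/- replicate 1 was above both. Of the 14 markers 11 were above 0 (78.6%, against 45.3% of all genes), with a median of 0.37. By limma 5 of the 14, all higher (4.4% of all genes were), had an unadjusted p under 0.05, and 0 had an adjusted p under 0.05. Among the others Clec4f was at -0.27, Csf1r at -0.02, C1qa at 0.01 and Vsig4 at 0.05. Mpeg1, a pore-forming protein of macrophages, was at 0.65 ± 0.16 (SE, adjusted p = 0.249), and Cd163, a scavenger receptor, at -0.98 ± 0.50 (SE, adjusted p = 0.602). MTAP+/- replicate 2 stood apart on this list, with Marco at 9.97 against 4.70 to 7.60 in the other livers and Cd163 at 4.33 against 6.42 to 7.73. It was also the highest of all livers for each of the 5 markers with an unadjusted p under 0.05 by limma. These were Mpeg1 (9.64), Cd5l (11.29), Cd68 (7.41), Adgre1 (8.93, against 6.76 to 7.83 in the other livers) and Timd4 (5.98). In that liver Clec4f was at 7.06 against 8.85 to 9.45, and Vsig4 at 8.20 against 9.02 to 9.98. The part of macrophages in the changes of the interferon response genes was not tested.

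Other marker lists had medians closer to 0, but single genes in them differed as much. Between the genotypes the median log2 change was 0.02 for the plasmacytoid dendritic cell list (5 genes), 0.07 for NK cells (7), 0.02 for T cells (7), 0.19 for B cells (4), 0.07 for neutrophils (6), 0.03 for sinusoidal endothelium (7), 0.07 for stellate cells (7) and -0.09 for cholangiocytes (4). The NK and T cell lists averaged 3.56 to 4.30 in all 8 livers, close to the array medians. By list means the neutrophil markers were at 4.51 ± 0.37 in MTAP+/- and 4.26 ± 0.16 in MTAP+/+ livers, and the B cell markers at 4.47 ± 0.17 in MTAP+/- and 4.25 ± 0.13 in MTAP+/+ livers (SD, n = 4 each). These differences, 0.25 and 0.22, were about as large as the 0.24 of the macrophage list. S100a9, a calcium-binding protein of neutrophils, had a signal of 5.03, 5.85, 5.87 and 7.66 in MTAP+/- livers, against 5.69, 5.15, 5.49 and 5.12 in MTAP+/+ livers. MTAP+/- replicate 4, the liver with the highest Cxcl10, was far above the others. The log2 changes were 0.74 ± 0.44 (SE, adjusted p = 0.655) for S100a9 and 0.71 ± 0.39 (SE, adjusted p = 0.637) for its partner S100a8. Cd79b, a chain of the B cell receptor, was at 0.56 ± 0.22 (SE, adjusted p = 0.47), and Lyve1, a hyaluronan receptor of sinusoidal endothelium, at 0.81 ± 0.39 (SE, adjusted p = 0.585). The part of these cells in the changes of the members was not tested either.

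**Figure D5:**
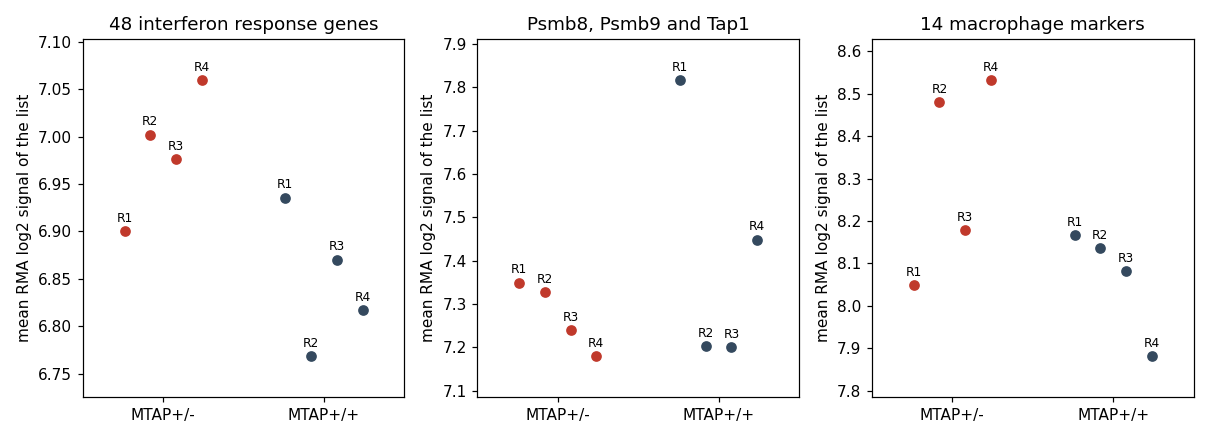
Mean RMA log2 signal (vertical axis) in each liver of the 48 interferon response genes, of Psmb8, Psmb9 and Tap1, and of the 14 macrophage markers, with MTAP+/- livers on the left and MTAP+/+ livers on the right of each panel and R1 to R4 for the replicates. MTAP+/- replicates 4, 2 and 3 are the highest for the members and for the macrophage markers. For the markers the place of MTAP+/- replicate 2 rests on Marco. MTAP+/+ replicate 1 is the highest for the antigen processing genes.

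The rest of the pathway was read from a written list of 106 genes, of which 88 were measured. By limma 0 of the 88 had an adjusted p under 0.05, and 6 had an unadjusted p under 0.05, all higher (4.4% of all genes were). Changes above 0 were seen for 57 of the 88 (64.8%, against 45.3% of all genes). Most interferon genes gave little signal. The 10 measured interferon genes had mean signals from 2.67 to 5.53, with 3 of the 10 above the median of all probe sets. Of them 4 had a log2 change above 0, and the probes of the alpha interferon genes can share targets. Ifnb1, which encodes interferon beta, had a signal of 2.80, 3.03, 3.44 and 3.42 in MTAP+/- livers, against 3.50, 3.01, 3.13 and 3.41 in MTAP+/+ livers, and Ifng had a signal of 2.64, 2.39, 2.83 and 2.80 in MTAP+/- livers, against 2.84, 2.70, 2.52 and 2.65 in MTAP+/+ livers. Both overlapped fully between the genotypes, at log2 changes of -0.09 and -0.01, and all their signals lay below the array medians.

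Receptor genes also overlapped. Ifnar1 was at 0.11, Ifnar2 at 0.03 and Ifngr1, a chain of the interferon gamma receptor, at 0.06. Ifngr2, its second chain, had a signal of 5.12, 6.86, 5.33 and 5.36 in MTAP+/- livers, against 6.56, 6.73, 6.77 and 5.05 in MTAP+/+ livers. It was low in MTAP+/- replicates 1, 3 and 4 and in MTAP+/+ replicate 4 and high in the other 4 livers, which is the division of the leading principal component except for MTAP+/+ replicate 3. Its change was -0.61 ± 0.44 (SE, adjusted p = 0.733). Of the 7 measured kinases and factors 6 were above 0, among them Jak1 at 0.19 and Jak2 at 0.28. The 12 sensors and adaptors lay between -0.11 and 0.22.

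Socs3, a brake on cytokine signalling that responds to interleukin 6 as well as to interferon, was the member of the inhibitor list with the largest change. Its signal was 8.19, 6.33, 8.91 and 7.37 in MTAP+/- livers, against 5.88, 6.16, 5.26 and 6.12 in MTAP+/+ livers. All heterozygous livers were above all wild types, though MTAP+/- replicate 2 only just. Its difference was 1.84 ± 0.45 (SE, adjusted p = 0.237), and without MTAP+/- replicate 2 it was 2.30 (limma adjusted p = 0.0451). Socs1, the inhibitor best known from interferon signalling, was at 0.00.

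Among the 46 further interferon-induced genes 27 were above 0 (58.7%, against 45.3% of all genes). By limma 5 had an unadjusted p under 0.05, all higher, and 4.4% of all genes were higher at that level. Ddx60, a helicase tied to antiviral defence, had a signal of 4.52, 4.49, 4.71 and 4.54 in MTAP+/- livers, against 3.87, 4.24, 4.11 and 4.09 in MTAP+/+ livers. Trim34a, which lies in the same gene family as Trim30a, had a signal of 6.59, 6.46, 6.58 and 6.49 in MTAP+/- livers, against 6.15, 6.11, 5.98 and 6.33 in MTAP+/+ livers. Phf11d had a signal of 5.95, 5.94, 5.95 and 6.08 in MTAP+/- livers, against 5.56, 5.61, 5.65 and 5.73 in MTAP+/+ livers. In all 3 genes, and in no other of the 46, every MTAP+/- liver was above every MTAP+/+ liver, as for 1.95% of all genes. The log2 changes were 0.49 ± 0.11 (SE, adjusted p = 0.221) for Ddx60, 0.39 ± 0.10 (SE, adjusted p = 0.296) for Trim34a and 0.34 ± 0.09 (SE, adjusted p = 0.306) for Phf11d.

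For 22 members the arrays carried several probe sets. In 15 of these all probe sets pointed the same way as the representative one. In 7 (Adar, Ddx58, Dhx58, Eif2ak2, Gbp2, Rtp4 and Trim25) at least 1 pointed the other way. Of all 81 probe sets of the members 54 were above 0 (66.7%, against 47.3% of the 45037 probe sets tested). An unadjusted p under 0.05 by limma was found for 9 that were higher (11.1%, against 4.56% of all probe sets) and 3 that were lower (3.7%, against 3.85%). The IFIT, OAS, GBP and TRIM genes have close paralogues, so a probe set may also bind a related transcript. With probe sets whose names end in _a_at, _s_at, _x_at or _i_at left out, 38 members were measured and 26 of them were above 0. Trim30a and Trim25 were among the members that this filter removed.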

How the data were processed

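Liver RNA of 8 mice, isolated with TRIzol and biotin-labelled per the labels' protocols, was measured on 8 Affymetrix arrays. The authors summarised each probe set with RMA, per the submitters' processing notes, and deposited log2 signals. The sources used here give neither its version nor its settings. RMA narrows differences of weak signals, and no detection calls were used. Of 45101 probe sets 64 controls were left out. Platform annotation gave 1 symbol to 34945 of the others, several to 932 and none to 9160. Each of 18193 genes was represented by its probe set of highest mean over the 8 arrays.

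The genotypes were compared with limma 3.58.1 in R 4.3.3 (lmFit and eBayes, two-sided), adjusted by Benjamini-Hochberg over all 18193 genes at 0.05. The fit was tested on simulated data. Values printed as adjusted p come from this fit. The number of arrays limits the precision, and p-values treat the 8 livers as independent. The members, gene lists, classes and tests were chosen with earlier results of these data known. Named with values were the 8 members of smallest p in each direction, the largest change in each class and the 4 of highest mean signal. So were members with an unadjusted p under 0.05 by limma and another probe set of opposite sign. Chosen pathway genes and the 4 of smallest p among other pathway genes were also named. The remaining members, Cd163, Mpeg1, Marco, Clec4f, Csf1r, C1qa, Vsig4, S100a8, S100a9, Cd79b, Lyve1, Jak1, Jak2 and Socs1 were named after their values were seen. This also holds for Cd5l, Cd68, Adgre1 and Timd4. Of 106 pathway genes 18 had no probe set with 1 symbol and were not analysed here. Older symbols were matched through a RefSeq gene table. Promoters came from RefSeq, build GRCm38.p6. The fit was repeated with probe sets averaged per gene, without probe sets ending in _a_at, _s_at, _x_at or _i_at, and without dim genes. It was also run with eBayes trend and robust options, with array weights, after another quantile normalisation and after centring arrays on their medians. Further runs took replicate number as a block or left out each array in turn.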

Additional observations from a re-analysis of the deposited data

Results flagged for a closer look

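In 6 of 98 sets of 4 livers (each of 48 members and their mean, within 1 genotype) 1 liver stood far from the other 3, by a test that chance passes in about 1 of 20 such sets. Irgm1 was at 7.79 in MTAP+/- replicate 1, with the other heterozygous livers between 8.18 and 8.21. Dhx58 was at 5.09 in MTAP+/- replicate 4, with the others between 5.59 and 5.69. Nmi was at 8.46 in MTAP+/- replicate 1, with the others between 8.30 and 8.32. Ifit3 was at 6.34 in MTAP+/+ replicate 4, with the other wild types between 6.69 and 6.72. Parp14 was at 6.83 in MTAP+/+ replicate 4, with the others between 6.55 and 6.58. Irf7 was at 7.00 in MTAP+/+ replicate 1, with the others between 6.66 and 6.70. These outlying livers were spread over 4 arrays, and the mean over the 48 members had no such liver in either genotype.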

How the results depend on the processing

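The count of members past the threshold was 0 under all 16 alternatives, and limma's smallest adjusted p among them lay between 0.103 and 0.510. Members above 0 numbered 26 of 38 with probe sets ending in _a_at, _s_at, _x_at or _i_at left out and 30 to 37 of 46 to 48 otherwise. Members whose genotypes did not overlap numbered 4 of 38 with those probe sets left out (4.44% of all genes). Otherwise they numbered 4 to 9 of 46 to 48. Members with an unadjusted p under 0.05 by limma numbered 5 with probe sets averaged per gene (8.61% of all genes), 14 with array weights (11.04%), 9 with the replicate number as a block (10.3%), and 5 to 10 when 1 array was left out (6.27% to 12.2%, and 5 without MTAP+/- replicate 4), against 8 (9.14%). Trim30a, Ifit1, Ifit2 and Herc6 kept an unadjusted p under 0.05 in every alternative in which they were measured. Of the other pathway genes 0 passed except without MTAP+/- replicate 2, when 1 (Socs3) did, so leaving out 1 array gave 0 to 1. Mtap had a log2 change of -0.80 with the replicate block, with an adjusted p of 0.112, and -0.84 to -0.74 when 1 array was left out, with adjusted p from 0.0451 to 0.121 and above 0.05 without any 1 of MTAP+/- replicates 1, 3 and 4 or MTAP+/+ replicates 1, 2 and 3. The block changed no call among the members or the other pathway genes. The replicate numbers were not taken as pairs, since deviations of same-numbered livers from their genotype means correlated at -0.10, 0.15, 0.03 and 0.14 across genes.

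Of the 48 members 33 kept their sign under all alternatives. The other 15, none of them past the threshold, changed sign under some, and the cause was not tested. When 1 array was left out their log2 changes ran as follows: Ddx58 -0.051 to 0.11, Zbp1 -0.074 to 0.18, Eif2ak2 -0.27 to 0.18, Adar -0.10 to 0.084, Oas1a -0.017 to 0.17, Oas2 -0.016 to 0.076, Oas3 -0.15 to 0.051, Mx2 -0.072 to 0.060, Bst2 -0.13 to 0.049, Usp18 -0.022 to 0.26, Parp9 -0.091 to 0.061, Ifi47 -0.076 to 0.12, Psmb9 -0.23 to 0.037, Xaf1 -0.012 to 0.26, Nmi -0.063 to 0.082. Under other settings the turned signs were Ddx58 at -0.0098 with probe sets averaged per gene, Zbp1 at -0.0047, Mx2 at -0.018 with centring on array medians, Oas2 at -0.0040, Parp9 at 0.039, Nmi at 0.038 with array weights, Mx2 at -0.013, Parp9 at 0.0039, Nmi at 0.0076 with renewed quantile normalisation. Weak signals limit Mx1, Oas3, Ifnb1 and Ifng, whose probe sets lay below the array medians.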
